A study of Mus musculus with 11 samples.

Results

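The 39 Hox genes of the mouse were read in 11 bulk RNA-seq libraries, and they were taken as every row of the count table whose symbol is Hoxa, Hoxb, Hoxc or Hoxd followed by a number. All 39 were present among the 22609 genes of the table, with 11 in cluster A, 10 in cluster B, 9 in cluster C and 9 in cluster D. The libraries came from polyA RNA that the labels name cerebellar hemisphere, from untreated littermates of both sexes. The control group (n = 3) carried the floxed alleles NfascFx/Fx and AnkGFx/Fx without Cre according to the series record. NFKO (n = 3) was Pcp2-Cre;NfascFx/Fx, AnkGKO (n = 2) was Pcp2-Cre;AnkGFx/Fx, and DKO (n = 3) was Pcp2-Cre;NfascFx/Fx;AnkGFx/Fx. Nfasc encodes the adhesion protein neurofascin and Ank3 the scaffold Ankyrin G, both of the axon initial segment, and Pcp2-Cre drives deletion mainly in Purkinje cells. The labels give the age as P30 in the sample descriptions and as P32 in the growth protocol, the strain as C57BL/6J in the descriptions and as a mixed C57BL/6J;129 background in the protocol, and the same batch for all libraries.

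Hox genes encode homeodomain transcription factors that give cells their position along the head-to-tail axis. They sit in 4 clusters, and genes that hold the same place in different clusters form a paralog group with a shared number. Low numbers lie at the 3′ end of a cluster and are used furthest forward in the hindbrain, and higher numbers start progressively further back, with the highest in lumbar, sacral and tail levels. The cerebellum forms from the most rostral segment of the hindbrain, which lies in front of the Hox domain. Hox proteins bind DNA together with Pbx and Meis family partners, and Polycomb and Trithorax proteins hold their clusters silent or active in adult cells.

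The labelled tissue was checked against cerebellar marker genes before the Hox genes were read. Pcp2, a Purkinje cell gene, stood at 26.3 CPM (read counts relative to the TMM-scaled library total) in control 1 and 28.3 CPM in NFKO 1, at 1.43 CPM in control 2 and 2.14 CPM in NFKO 2, and between 0.0929 and 0.374 CPM in the other 7 libraries. Gabra6, a GABA receptor subunit gene of granule cells, stood at 84.2 CPM in control 1 and 59.0 CPM in NFKO 1, and it was at or under 3 counts in NFKO 3, AnkGKO 1 and AnkGKO 2. Most of the libraries therefore held little of the RNA that defines cerebellum, and they are named below by their labels only. The summed level of 9 Purkinje cell genes was 335 to 1150 CPM in control, 323 to 1258 in NFKO, 310 to 325 in AnkGKO and 317 to 361 in DKO, and that of 8 granule cell genes was 82.7 to 714, 84.1 to 598, 71.1 to 99.7 and 74.1 to 117 CPM. Libraries held 38890851 to 55822361 counts in genes, so that 3 counts, taken as the limit of detection, corresponded to 0.0546 to 0.0780 CPM. These limits, like all counting intervals, cover counting error only. Ank3, the gene targeted in AnkGKO and DKO, was at 362.6 ± 11.1 CPM in control, 178.0 ± 31.4 in AnkGKO and 172.9 ± 12.7 in DKO (SD, n = 3, 2 and 3), a log2 fold change of -1.03 (SE 0.10, adjusted p = 0.00108) and -1.07 (SE 0.09, adjusted p = 0.000461) in edgeR. Nfasc was at 689.7 ± 28.4 CPM in control, 652.8 ± 41.8 in NFKO and 589.2 ± 26.5 in DKO (SD, n = 3 each), and its level did not set the libraries labelled NFKO apart from control (edgeR adjusted p = 0.969).

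Promoters of 4 genes are shown first, because the genes they serve mark the range of behaviour described below. Hoxb8 had the highest level of all Hox genes, Hoxa5 was the highest of cluster A and was high where Hoxa7 and Hoxa9 were low. Each window runs from 250 bases before the start of the gene to 50 after it, 5′ to 3′ on the strand of the gene, from RefSeq on GRCm38.p6, with every CpG dinucleotide in capitals.
Hoxa5 (chr6:52204538-52204837, minus strand): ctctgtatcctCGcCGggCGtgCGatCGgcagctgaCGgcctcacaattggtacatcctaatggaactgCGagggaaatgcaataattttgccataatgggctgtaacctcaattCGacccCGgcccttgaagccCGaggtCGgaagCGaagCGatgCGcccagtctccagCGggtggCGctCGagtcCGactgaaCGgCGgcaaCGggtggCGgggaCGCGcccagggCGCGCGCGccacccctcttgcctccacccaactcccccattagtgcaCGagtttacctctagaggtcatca
Hoxa7 (chr6:52218524-52218823, minus strand): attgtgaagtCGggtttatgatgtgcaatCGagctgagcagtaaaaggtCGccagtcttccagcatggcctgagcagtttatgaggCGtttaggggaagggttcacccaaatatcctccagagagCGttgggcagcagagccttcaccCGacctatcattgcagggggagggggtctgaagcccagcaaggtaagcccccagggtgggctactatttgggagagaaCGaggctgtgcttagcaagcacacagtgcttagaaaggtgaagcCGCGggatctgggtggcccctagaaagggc
Hoxa9 (chr6:52227321-52227620, minus strand): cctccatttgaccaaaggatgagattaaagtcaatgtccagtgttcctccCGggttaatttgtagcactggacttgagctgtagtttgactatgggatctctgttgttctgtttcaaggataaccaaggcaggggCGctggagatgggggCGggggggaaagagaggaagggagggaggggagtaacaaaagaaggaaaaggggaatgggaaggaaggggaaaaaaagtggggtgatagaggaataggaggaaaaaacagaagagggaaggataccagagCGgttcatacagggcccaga
Hoxb8 (chr11:96281655-96281954, plus strand): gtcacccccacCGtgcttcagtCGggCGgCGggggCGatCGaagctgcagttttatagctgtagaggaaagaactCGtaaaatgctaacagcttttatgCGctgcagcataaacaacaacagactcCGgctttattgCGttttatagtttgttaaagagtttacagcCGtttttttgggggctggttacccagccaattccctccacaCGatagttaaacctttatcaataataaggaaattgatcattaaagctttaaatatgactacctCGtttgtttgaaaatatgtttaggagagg
The windows of Hoxa5, Hoxa7, Hoxa9 and Hoxb8 held 29, 9, 4 and 13 CpG dinucleotides. RefSeq windows were at hand for 22 of the 39 Hox genes, with a median of 13.5 CpGs and a range of 4 to 45, against a median of 7 over all 27018 windows. On either strand, the core site of the retinoic acid receptor, AGGTCA, occurred in 31.8% of the Hox windows (7 of 22, Hoxa5 among them) and in 16% of all windows. The caudal-type site TTTATG occurred in 22.7% of the Hox windows (5 of 22, Hoxa7 and Hoxb8 among them) against 12.2%, the joint Pbx and Hox site TGATNNAT in 13.6% (3 of 22, Hoxb8 among them) against 9.05%, and the TATA box TATAAA in 13.6% (3 of 22, Hoxb8 among them) against 14.2%. Read on the other strand TTTATG is CATAAA, which differs from TATAAA in its first letter, so these motifs can lie close together but never match at the same bases in full. A match describes the window only.

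Hox RNA was abundant in every library. The 39 genes summed to 810.4 ± 75.8 CPM in control, 825.4 ± 30.8 in NFKO, 824.8 ± 26.5 in AnkGKO, against 783.8 ± 31.97 in DKO (SD, n = 3, 3, 2 and 3), and single libraries lay between 758.6 and 897.4 CPM. Between 27 and 29 of the 39 genes had more than 3 counts in a library. The sum was 775.3 CPM in control 1 and 791.8 CPM in NFKO 1, where the cerebellar genes were highest.

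**Figure D1:**
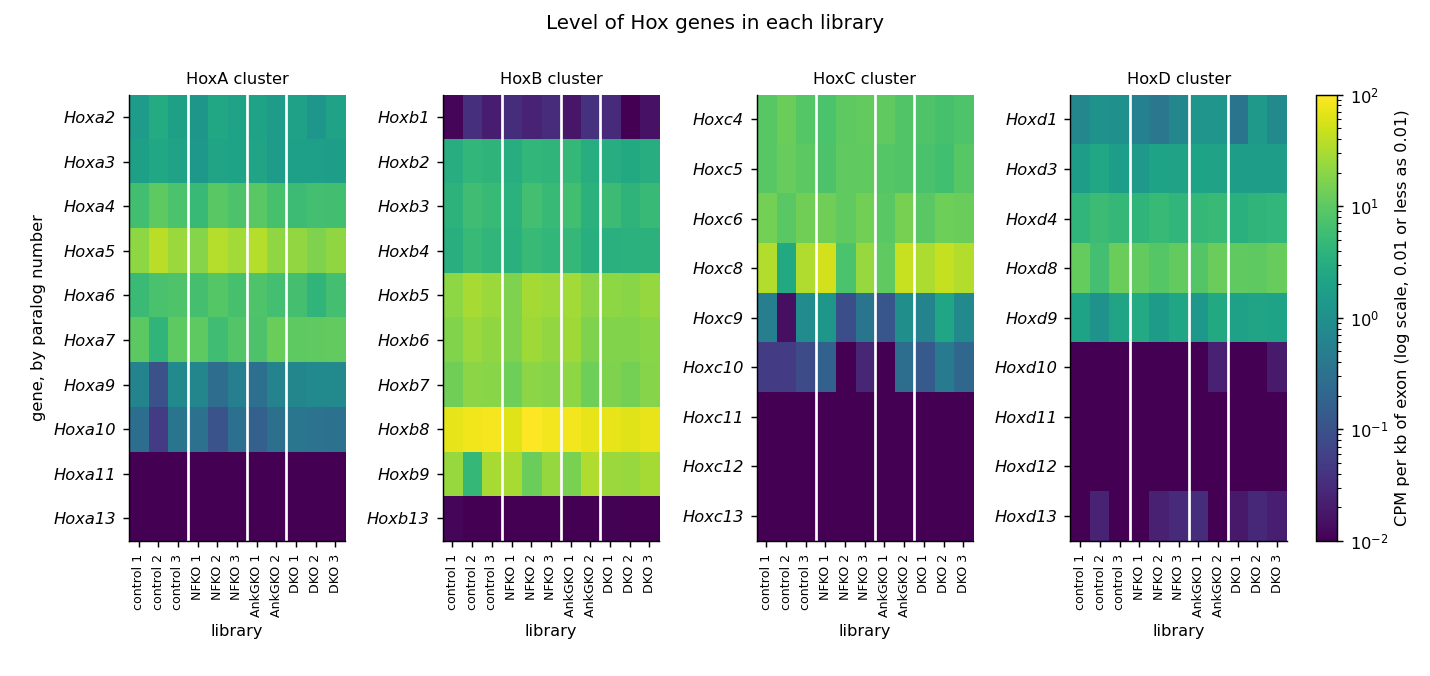
Heat map of the level of the Hox genes (rows, by cluster and paralog number) in each of the 11 libraries (columns, white lines between genotypes), as CPM per kb of exon on a log colour scale with values of 0.01 or less drawn as 0.01. Hoxb8, Hoxc8, Hoxa5, Hoxb5 and Hoxb9 are the brightest rows by mean level, groups 11 to 13 are at the bottom of the scale, and Hoxc8, Hoxc9, Hoxb9, Hoxa9 and Hoxa10 are dimmer in control 2, NFKO 2 and AnkGKO 1.

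To compare genes with each other, CPM was divided by the length of the union of exons in kb. On this scale cluster B (chr11:96085106-96259082, plus strand, GRCm39) held the largest share of Hox RNA, 50.5 to 62.5% of the summed level per library. Cluster A (chr6:52132570-52237822, minus strand) held 14.9 to 22.2%, cluster C (chr15:102829538-102945278, plus strand) 11.9 to 27.9% and cluster D (chr2:74498654-74595486, plus strand) 5.56 to 7.28%. The share of cluster C had the widest range, and cluster D was the lowest in every library.

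Hoxb8, a gene of the spinal cord in development, led cluster B and all Hox genes, with a mean of 77.7 CPM per kb over the 11 libraries (SD 11.5), which is at percentile 98.4 of the 15153 tested genes with a length. Its CPM was 187.5, 220.9 and 232.0 in the control libraries, 167.4, 265.2 and 226.8 in NFKO, 229.7 and 185.6 in AnkGKO, and 188.4, 171.2 and 194.1 in DKO (replicates in order, here and below). The DKO libraries lay among the lower values, and they overlapped the control range through DKO 1 and DKO 3.
Hoxc8 was the second in the order with 29.5 CPM per kb (SD 16.5), then Hoxa5 with 25.9 (SD 7.45), Hoxb5 with 23.7 (SD 4.36), Hoxb9 with 22.9 (SD 8.78), Hoxb6 with 20.7 (SD 3.98) and Hoxb7 with 17.3 (SD 3.07). From Hoxc8 to Hoxb6 the steps in this order are smaller than the spread over libraries, and the distance from Hoxb8 to Hoxc8 is larger. Hoxd8 led cluster D with 10.4 CPM per kb (SD 1.84), at rank 9 of the 39. In CPM it was at 32.8, 18.6 and 37.4 in control, 32.1, 26.2 and 31.9 in NFKO, 25.05 and 36.0 in AnkGKO, and 31.6, 30.4 and 34.2 in DKO, lowest in control 2, NFKO 2 and AnkGKO 1 of their genotypes. With the longest transcript as the length instead of the union of exons, ranks 1 to 3 were the same genes and Hoxb6 moved from rank 6 to rank 4.

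By paralog group, group 8 (Hoxb8, Hoxc8 and Hoxd8) was the highest in each library, with 30.8 to 42.5% of the summed level. Group 5, used in the lower hindbrain and cervical cord, followed with 14.6 to 26.9%, then group 6 with 11.6 to 14.1%. Groups 4, 7 and 9 held 6.67 to 11.3%, 7.91 to 9.55% and 1.96 to 12.0%, and their order differed between libraries. Group 1 reached at most 0.684% and group 10 at most 0.277%. Groups 1 to 3 belong to the hindbrain, and their highest members by mean level were Hoxb3 with 4.93 CPM per kb and Hoxb2 with 3.64.

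The far 5′ ends of the clusters were close to silent. Hoxa11, Hoxa13, Hoxc11, Hoxc12 and Hoxd12 had 0 counts in all 11 libraries, which allows a level of up to 0.0546 to 0.0780 CPM per library. Hoxb13, Hoxc13, Hoxd10 and Hoxd11 had at most 2 counts in a library, and Hoxd13, a gene of the limb tips and the genital region, had 0 to 4. At the other end Hoxb1, a gene of rhombomere 4 in the embryo, had 1 to 4 counts. Differences between libraries in these genes were not detectable at this depth.
The highest numbered gene above 3 counts in most libraries was Hoxa10, Hoxb9, Hoxc10 and Hoxd9 in clusters A to D, where Hoxc10 was above 3 counts in 8 of the 11. Hoxa10 was at 0.910, 0.161 and 1.17 CPM in control, 1.03, 0.347 and 0.966 in NFKO, 0.557 and 0.978 in AnkGKO, and 1.21, 1.12 and 1.07 in DKO. Hoxc10, a gene of the lumbar cord, had 4, 5 and 7 counts in control, 19, 1 and 3 in NFKO, 1 and 26 in AnkGKO, and 12, 40 and 24 in DKO. Hoxa10 was lowest in control 2, NFKO 2 and AnkGKO 1 of their genotypes. For Hoxc10 the control libraries were alike within counting error, NFKO 2 and AnkGKO 1 had 1 count each, and the DKO libraries had more counts than any control library.

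The spread of Hox genes between libraries of the same genotype was larger than that of most genes. Over 26 Hox genes with a mean of at least 1 CPM, the median residual SD within genotypes was 0.314 on the log2 scale (pseudocount 0.05 CPM), against 0.125 over all 13910 genes of at least 1 CPM, and 7 of the 26 lay above percentile 95 of those genes. These 7 were Hoxd9, Hoxa7, Hoxd1, Hoxb9, Hoxa9, Hoxc8 and Hoxc9, of which 6 belong to paralog groups 7 to 9. The share of variance between genotype means had a median of 20.8% for the Hox genes, against 34.0% over all genes of that level. With so few libraries per genotype, group means take up part of the variance even without a genotype effect. That part was not subtracted, so these shares do not measure an effect of genotype. In bulk RNA, fewer cells of a type and less RNA per cell cannot be told apart, and both could move a Hox gene.

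Hoxc8, a thoracic gene, had the widest spread among the abundant genes. Its CPM was 105.5, 7.99 and 101.2 in control, 159.0, 22.03 and 72.8 in NFKO, 32.2 and 139.1 in AnkGKO, and 98.2, 136.2 and 105.2 in DKO. The highest and lowest library of a genotype differed 13.2-fold in control, 7.22-fold in NFKO, 4.32-fold in AnkGKO and 1.39-fold in DKO, with control 2, NFKO 2 and AnkGKO 1 at the bottom.
Hoxb9, a thoracic gene, had the same libraries at the bottom. It was at 65.6, 12.6 and 82.6 CPM in control, 80.9, 32.8 and 63.8 in NFKO, 42.1 and 91.5 in AnkGKO, and 68.4, 64.7 and 77.7 in DKO, which is 6.54-fold between the control libraries and 1.20-fold between the DKO libraries.
Hoxa9 and Hoxc9 are the paralogs of Hoxb9 in clusters A and C. Hoxa9 was at 3.59, 0.544 and 4.36 CPM in control, 3.79, 1.48 and 2.99 in NFKO, 1.61 and 3.45 in AnkGKO, and 3.85, 4.65 and 4.20 in DKO. Hoxc9 had 54, 2 and 99 counts in control, 191, 13 and 53 in NFKO, 16 and 125 in AnkGKO, and 76, 266 and 122 in DKO. The order of the libraries within control, NFKO and AnkGKO was like that of Hoxb9 in having control 2, NFKO 2 and AnkGKO 1 last.
Hoxd9, the fourth paralog of this group, was at 4.60, 2.40 and 4.76 CPM in control, 6.22, 3.58 and 4.94 in NFKO, 2.99 and 5.91 in AnkGKO, and 4.29, 4.79 and 4.60 in DKO. The lowest libraries were again control 2, NFKO 2 and AnkGKO 1, with a smaller range of 1.99-fold in control.

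Genes of lower number were ordered the other way. Hoxa5, which acts in the lower brainstem and cervical cord, was at 38.9, 72.5 and 47.5 CPM in control, 35.01, 66.5 and 52.9 in NFKO, 66.2 and 40.3 in AnkGKO, and 42.1, 31.7 and 41.0 in DKO. Control 2, NFKO 2 and AnkGKO 1 were the highest of their genotypes here. Hoxb5, its paralog in cluster B, had 57.5, 84.3 and 69.9 CPM in control and 47.8, 80.6 and 73.5 in NFKO, again with replicate 2 the highest of each.
Counted over the members of at least 1 CPM, control 2 was the highest control library in 15 of 17 genes of groups 1 to 6 and the lowest in 7 of 9 genes of groups 7 to 9. NFKO 2 was the highest of its genotype in 13 of 17 and the lowest in 7 of 9, and AnkGKO 1 the higher in 14 of 17 and the lower in 7 of 9. In DKO no library was the highest in more than 7 of the 17 or the lowest in more than 5 of the 9, and DKO 2 was the lowest in 9 of the 17. The genes of a cluster share their libraries and lie side by side, so these counts are a description and not independent observations.

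**Figure D2:**
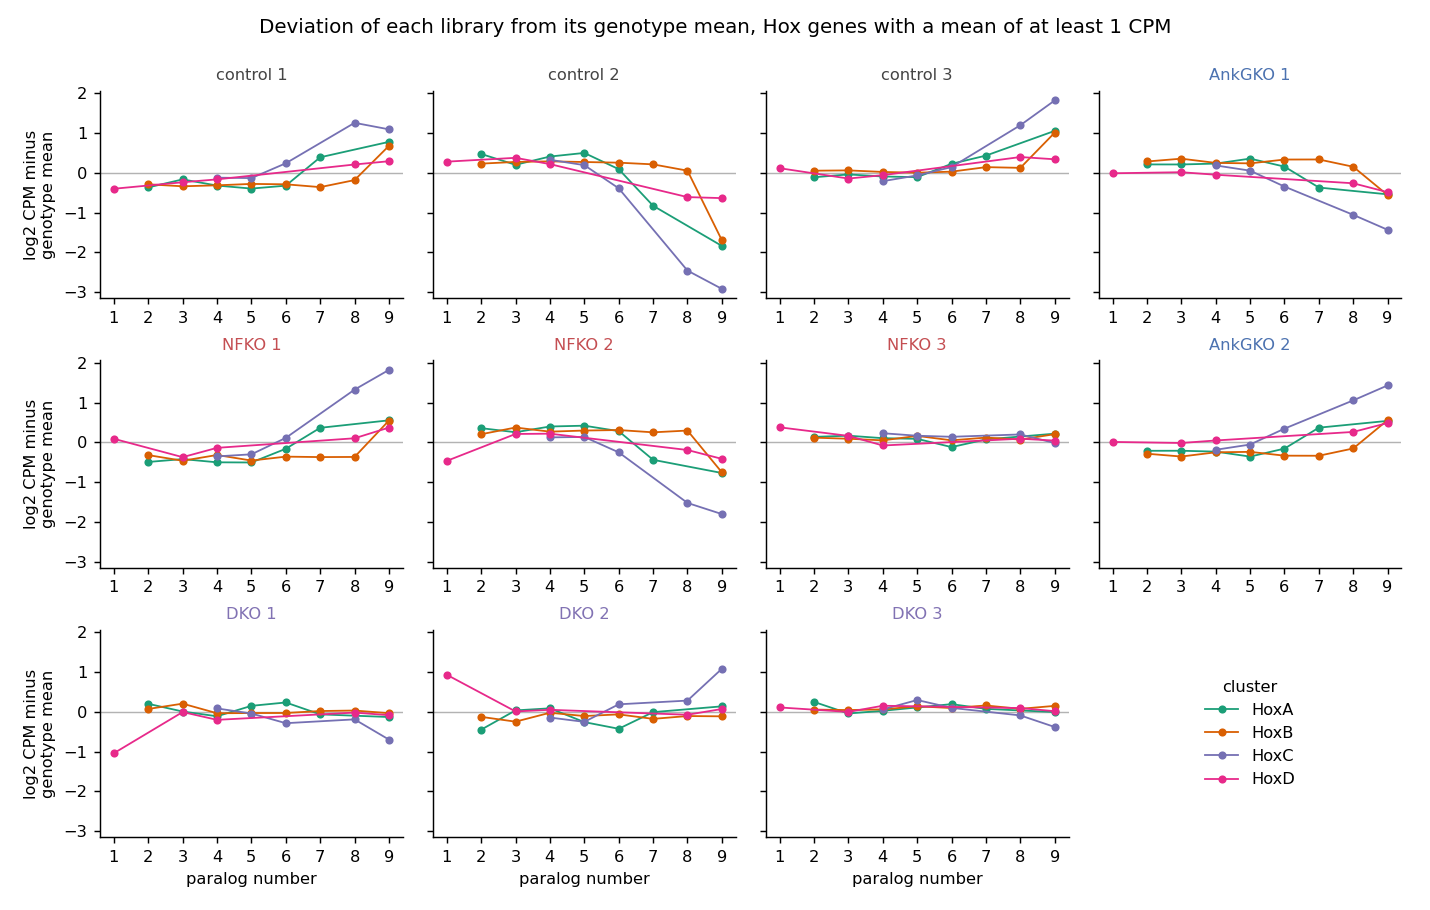
Deviation of log2 CPM from the mean of the genotype (vertical axis) against paralog number (horizontal axis) for Hox genes with a mean of at least 1 CPM, in a panel for each of the 11 libraries, with a line for each cluster. Lines end below 0 at paralog number 9 in control 2, NFKO 2 and AnkGKO 1, end above 0 there in control 1, control 3, NFKO 1 and AnkGKO 2, and stay nearer to 0 in NFKO 3 and in DKO, where Hoxd1 and Hoxc9 deviate most.

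The place at which the order of libraries turned differed between the clusters. In cluster A it fell between Hoxa6 and Hoxa7, in cluster B between Hoxb8 and Hoxb9, in cluster C between Hoxc5 and Hoxc6, and in cluster D between Hoxd4 and Hoxd8, with exceptions such as Hoxd1 in NFKO and Hoxd4 in AnkGKO. The ratio of genes on either side shows this without any scaling between libraries. These pairs were chosen after their values were seen. The ratio of Hoxb9 to Hoxb8 in CPM was 0.350, 0.0571 and 0.356 in control, 0.483, 0.124 and 0.281 in NFKO, 0.183 and 0.493 in AnkGKO, and 0.363, 0.378 and 0.400 in DKO. The ratio of Hoxa7 to Hoxa6 was 6.08, 1.95 and 4.27 in control, 5.14, 2.16 and 4.08 in NFKO, 3.08 and 6.41 in AnkGKO, and 5.06, 8.36 and 5.73 in DKO. Both ratios were lowest in control 2, NFKO 2 and AnkGKO 1 of their genotypes.
The ratio of Hoxc6 to Hoxc5 was 1.29, 0.665 and 1.15 in control, 1.45, 0.833 and 1.07 in NFKO, 0.860 and 1.497 in AnkGKO, and 1.07, 1.72 and 1.10 in DKO, and it had the same 3 libraries as the lowest. The ratio of Hoxc8 to Hoxc6 was 2.87, 0.336 and 2.94 in control, 4.57, 0.815 and 2.05 in NFKO, 1.37 and 3.67 in AnkGKO, and 4.13, 4.13 and 3.39 in DKO. Both of these genes lie on the side of the higher numbers, so this ratio gives the spread within that side. The ratio of Hoxd8 to Hoxd4 was 2.61, 1.13 and 2.76 in control, 2.65, 1.69 and 2.53 in NFKO, 1.83 and 2.47 in AnkGKO, and 3.08, 2.48 and 2.60 in DKO. Hoxc6 itself took the side of the higher numbers, with 36.8, 23.8 and 34.4 CPM in control, while Hoxb6, Hoxb7 and Hoxb8 in cluster B did not, so the turning point was not at the same paralog number in all clusters.

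As a single number per library, the mean paralog number weighted by level was 6.67, 6.02 and 6.68 in control, 6.87, 6.31 and 6.52 in NFKO, 6.30 and 6.80 in AnkGKO, and 6.69, 6.78 and 6.69 in DKO. Group means were 6.46 ± 0.375, 6.57 ± 0.280, 6.55 ± 0.351 and 6.72 ± 0.0491 (SD, n = 3, 3, 2 and 3), so the groups differed by less than the spread within control, NFKO or AnkGKO. Paralog group 9 ranged from 5.86 to 38.1 CPM per kb over the libraries (6.49-fold) and group 10 from 0.0979 to 0.796 (8.12-fold). Groups 6 and 7, where genes of both orders add up, ranged 1.37-fold and 1.27-fold. Groups 9 to 13 made up 2.00% of the summed level in control 2, 4.37% in NFKO 2, 5.55% in AnkGKO 1 and 8.27 to 12.2% in the other 8 libraries.

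**Figure D3:**
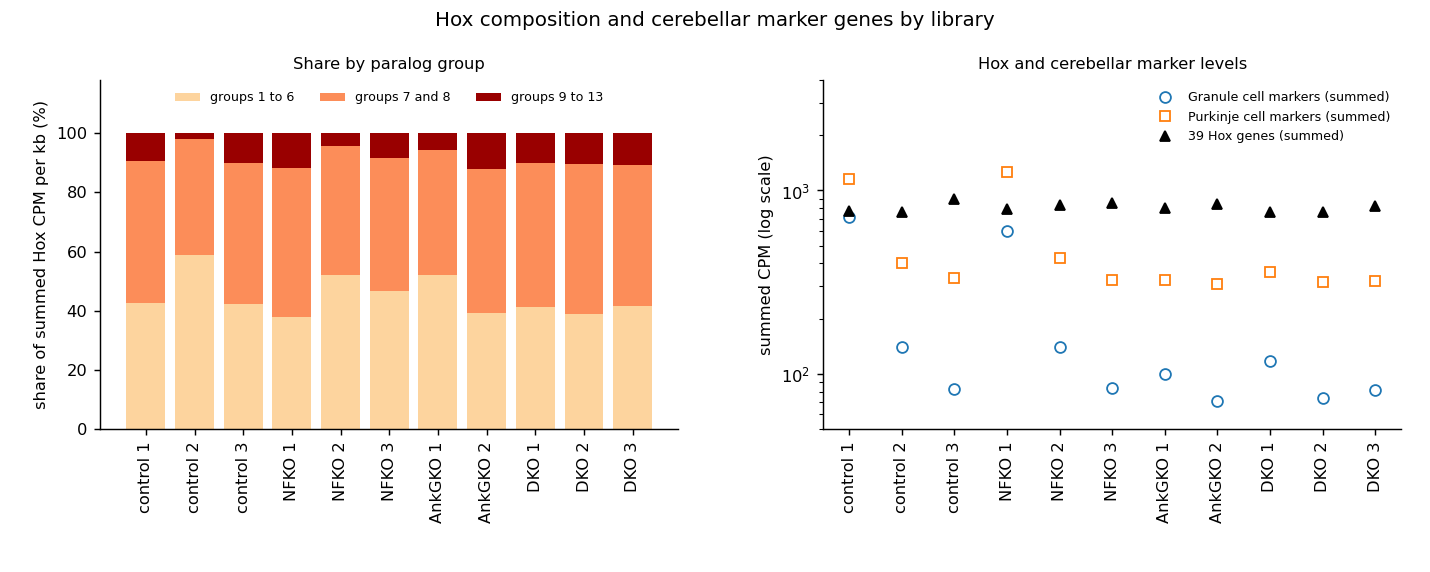
Left, share of the summed Hox level per length (%) held by paralog groups 1 to 6, 7 and 8, and 9 to 13, as stacked bars for each of the 11 libraries. Right, summed CPM on a log scale of all 39 Hox genes (triangles), 8 granule cell genes (circles) and 9 Purkinje cell genes (squares), where the Hox sum stays between 758.6 and 897.4 CPM while the granule cell sum ranges from 71.1 to 714 CPM.

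Other genes that moved with this order are given beside it, and their part in it was not tested. The summed level of 8 fibroblast genes was 174, 350 and 243 CPM in control, 314, 1161 and 373 in NFKO, 295 and 178 in AnkGKO, and 213, 413 and 148 in DKO. Control 2, NFKO 2 and AnkGKO 1 had the highest fibroblast sums of their genotypes. All 8 genes were above 3 counts in every library, none was at 0, and the sum ranged from 174 to 350, 314 to 1161, 178 to 295 and 148 to 413 CPM in the 4 groups. The summed level of 8 skeletal muscle genes ranged from 35.5 to 66.5 CPM in control, 2.58 to 435 in NFKO, 2.13 to 2.74 in AnkGKO and 2.45 to 209 in DKO, with the highest value in NFKO 2, and Myh4 was at 0 in DKO 1 and DKO 3. The sum of 8 Schwann cell genes, which genes shared with oligodendrocytes such as Mbp dominate, ranged from 24850 to 27140 CPM in control, 22870 to 27610 in NFKO, 24740 to 27630 in AnkGKO and 24060 to 25040 in DKO.
Among factors of spinal and hindbrain neuron classes, all 18 listed genes were tested and 17 were above 3 counts in each library. Chat, the acetylcholine synthesis enzyme of motor neurons, was at 46.8, 29.5 and 52.7 CPM in control, 49.9, 29.7 and 35.3 in NFKO, 34.3 and 66.7 in AnkGKO, and 61.4, 65.7 and 57.6 in DKO. It was thus low in control 2, NFKO 2 and AnkGKO 1, as Hoxc8 was. The listed genes did not move together. Isl2 and Mnx1 were also lowest in these libraries of their genotypes, while Lbx1, Lmx1b and Pax8 were highest in them. Lbx1 was at 5.25, 8.54 and 7.19 CPM in control, 5.32, 7.57 and 7.06 in NFKO, and 8.955 and 5.13 in AnkGKO. The summed level of the 18 genes was 133 to 152 CPM in control, 131 to 138 in NFKO, 132 to 162 in AnkGKO and 154 to 171 in DKO. Library totals were 38890851, 48540837 and 42429974 counts in control, 52757792, 50126172 and 53758610 in NFKO, and 47374325 and 47428701 in AnkGKO. Control 2 thus had the highest total of its genotype, and NFKO 2 and AnkGKO 1 the lowest. The TMM factors were 0.989, 1.023 and 0.990 in control, 0.991, 1.036 and 1.001 in NFKO, and 1.023 and 0.971 in AnkGKO. They were highest in control 2, NFKO 2 and AnkGKO 1, and the part of depth or scaling was not tested.

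The comparison of NFKO with control sets the libraries labelled NFKO against those labelled control. Most of them held little Purkinje cell RNA, and the level of Nfasc did not set NFKO apart. It is therefore a comparison of labelled groups and cannot be read as the effect of a deletion in Purkinje cells. Of the 39 members 30 passed the count minimum of 10 over all libraries. No Hox gene was called (edgeR adjusted p under 0.05 and a log2 fold change of at least 0.6 in size), where 0.365% of all 17557 genes were called. None of the 30 had an unadjusted p under 0.05, against 7.69% of all genes, and DESeq2 called none, against 0.908%, with no unadjusted p under 0.05, against 9.33%. The libraries of the groups overlapped for all 30 genes, while 13.9% of all genes did not overlap.
P-values here measure the spread between samples labelled as biological replicates. The smallest p belonged to Hoxd1, a hindbrain gene also used in pain neurons. It was at 1.30, 2.11 and 1.88 CPM in control and 1.07, 0.713 and 1.32 in NFKO, with control 1 inside the NFKO range, and at 2.27 and 2.30 in AnkGKO and 0.653, 2.71 and 1.51 in DKO. Its log2 fold change was -0.77 (SE 0.42, edgeR adjusted p = 0.769). Hoxd9 followed with 0.33 (SE 0.31, edgeR adjusted p = 0.946) and Hoxa3, a gene of the pharyngeal arches and hindbrain, with -0.16 (SE 0.17, edgeR adjusted p = 0.959). Hoxa3 was at 12.8, 16.5 and 14.0 CPM in control, 9.41, 15.1 and 14.2 in NFKO, 14.9 and 11.1 in AnkGKO, and 12.3, 12.5 and 11.9 in DKO. Between control and NFKO libraries of the same number, whose deviations went together, Hoxd1 was lower in NFKO in 3 of 3 pairs and Hoxd9 higher in 3 of 3, while Hoxa3 was lower in 2 of 3. Hoxd4 was also lower in 3 of 3 and Hoxb4 higher in 3 of 3. With 3 pairs the same direction in each arises often without a difference, and the share over all genes was not counted. With the replicate number as a block the log2 fold change of Hoxd1 was -0.72 (edgeR adjusted p = 0.817) and that of Hoxd9 0.34 (edgeR adjusted p = 0.978). Over all alternatives that of Hoxd9 ranged from 0.068, without control 2, to 0.51, and that of Hoxd1 from -0.99 to -0.56.
The abundant genes had narrow and wide intervals according to their spread. For Hoxb8 the log2 fold change was 0.04 (95% interval -0.30 to 0.38), and for Hoxc8 it was 0.24 (-2.19 to 2.67). For Hoxc8 it was 0.28 with the replicate block, and without the block it turned to -0.29 without control 2 and to -0.59 without NFKO 1. Of the 18 tested genes in groups 1 to 6, 11 were lower in NFKO, and of the 11 in groups 7 to 10, 9 were higher, and without NFKO 1 these counts were 3 and 3. Without control 2 they were 4 and 4, and without control 1 and NFKO 1 together they were 11 and 5. Of all genes 51.7% were lower.

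The comparison of AnkGKO with control was also made between labelled groups. edgeR called no Hox gene, against 0.165% of all genes, none had an unadjusted p under 0.05, against 5.39%, and DESeq2 called none, against 0.582%, with no unadjusted p under 0.05, against 7.08%. The libraries of the groups did not overlap for 3 of the 30 genes (Hoxc5 and Hoxd1 among them), against 24.0% of all genes.
Hoxc5, a cervical gene, had the smallest p. It was at 28.5, 35.8 and 29.9 CPM in control and 27.3 and 25.3 in AnkGKO, so both AnkGKO libraries lay below control, and the NFKO libraries were at 24.0, 32.5 and 33.2. It had a log2 fold change of -0.26 (SE 0.18, edgeR adjusted p = 0.998), which was -0.15 without control 2 and -0.32 without control 1. Hoxc10 had a fitted log2 fold change of 1.22 (SE 1.17, edgeR adjusted p = 0.998) that rests on the 26 counts of AnkGKO 2, and it was -2.44 without that library.
For Hoxc8 the log2 fold change was 0.26 (95% interval -2.44 to 2.96), -0.28 without control 2 and -1.15 without AnkGKO 2. In groups 1 to 6, 11 of 18 genes were lower and in groups 7 to 10, 8 of 11 were higher, against 51.3% of all genes lower. The counts were 4 and 3 without control 2 and 6 and 2 without AnkGKO 2.

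The comparison of DKO with control was likewise between labelled groups. edgeR called no Hox gene, against 0.0228% of all genes, and 2 genes (Hoxc5 and Hoxc4) had an unadjusted p under 0.05, against 7.77%. DESeq2 called none, against 0.251%, and gave 4 genes (Hoxb2, Hoxc4, Hoxc5 and Hoxc10) an unadjusted p under 0.05, against 10.6%. The libraries of the groups did not overlap for 5 of the 30 genes (Hoxa3, Hoxb2, Hoxc4, Hoxc5 and Hoxc10), against 14.4% of all genes.
Hoxc5 was at 28.5, 35.8 and 29.9 CPM in control and 22.2, 19.2 and 28.1 in DKO, with a log2 fold change of -0.44 (SE 0.16, edgeR adjusted p = 0.609). Hoxc4, its neighbour in the cluster, was at 23.9, 32.6 and 22.5 CPM in control and 20.7, 17.6 and 20.3 in DKO, with -0.43 (SE 0.18, edgeR adjusted p = 0.629). Hoxb2, a regulator of hindbrain segments, was at 11, 15.8 and 14.0 CPM in control and 10.97, 9.55 and 10.9 in DKO, with -0.38 (SE 0.18, edgeR adjusted p = 0.643). The single knockouts had 18.8, 26.2 and 28.2 CPM of Hoxc4 in NFKO with 26.99 and 20.8 in AnkGKO, and 10.8, 15.5 and 14.6 CPM of Hoxb2 in NFKO with 16.01 and 10.75 in AnkGKO. In all 3 genes control 2 was the highest control library and DKO lay below the lowest control library. Without control 2 the log2 fold changes of Hoxc5, Hoxc4 and Hoxb2 were -0.34, -0.25 and -0.26. Over all alternatives they ranged from -0.60 to -0.32, from -0.53 to -0.25 and from -0.51 to -0.26.
All 18 tested genes of groups 1 to 6 had a lower fitted level in DKO, with a median log2 fold change of -0.26, and 9 of 11 genes of groups 7 to 10 had a higher one, with a median of 0.39, against a median of 0.00 and 50.2% lower over all genes. In each comparison the 18 include Hoxb1, with 1 to 4 counts in a library, and the 11 include Hoxc10, with 1 to 40. At such counts a direction carries little. No library of DKO took the low position in groups 7 to 9 that control 2 had. Without control 2, 14 of the 18 were lower and 7 of the 11 higher, and the medians were -0.14 and 0.07. The medians were -0.39 and 0.57 without control 1, and -0.29 and 0.85 without control 3. Single changes in groups 1 to 6 ranged from -0.47 for Hoxa5 to -0.06 for the smallest. The 3 comparisons share their control libraries, so their counts do not stand apart from each other.

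**Figure D4:**
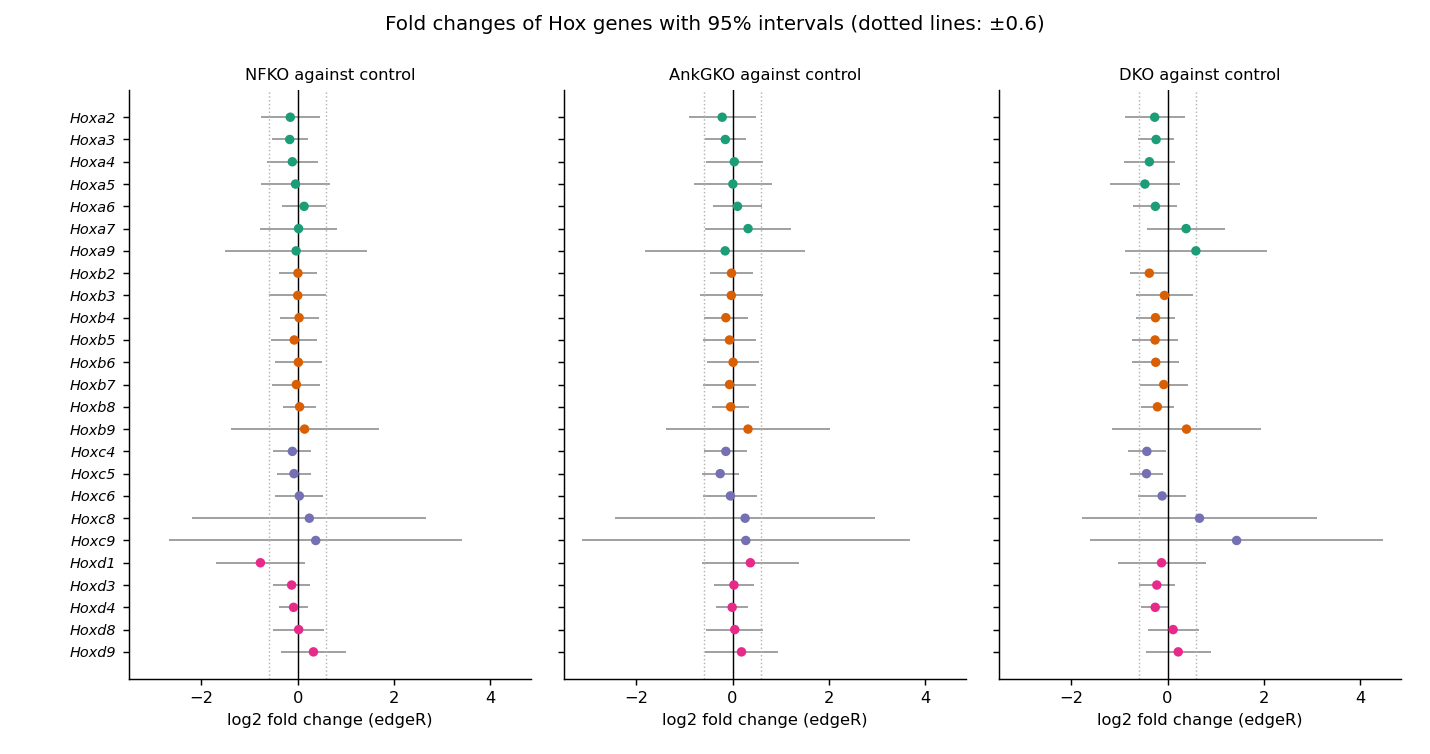
Log2 fold changes (edgeR) against control with 95% intervals for Hox genes with a mean of at least 1 CPM, in a panel each for NFKO, AnkGKO and DKO, coloured by cluster (A green, B orange, C violet, D pink), with dotted lines at the fold threshold of 0.6. Intervals are widest for Hoxc9, Hoxc8, Hoxb9 and Hoxa9, and in DKO the points of groups 1 to 6 lie to the left of 0.

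DKO was also set against each single knockout. Against NFKO, edgeR called no Hox gene, against 0.615% of all genes, and Hoxc5 had an unadjusted p under 0.05, against 16.2%, with a log2 fold change of -0.36 (SE 0.16, edgeR adjusted p = 0.287). DESeq2 called none, against 2.39%, with 3 genes (Hoxb2, Hoxc5 and Hoxc10) at an unadjusted p under 0.05, against 19.7%, and 3 of the 30 genes (Hoxa6, Hoxa9 and Hoxa10) did not overlap, against 19.3%. Against AnkGKO, edgeR called none, against 0.171%, with no unadjusted p under 0.05, against 8.48%, and DESeq2 called none, against 0.565%, with no unadjusted p under 0.05, against 11.1%. There 6 of the 30 genes (Hoxa4, Hoxa9, Hoxa10, Hoxc4, Hoxd3 and Hoxd4) did not overlap, against 23.7%. A joint test of the 4 genotypes called no Hox gene in edgeR, against 0.723% of all genes, with none at an unadjusted p under 0.05, against 11.3%. DESeq2 called none in it either, against 6.49%, with 1 gene (Hoxc5) at an unadjusted p under 0.05, against 17.2%.

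**Figure D5:**
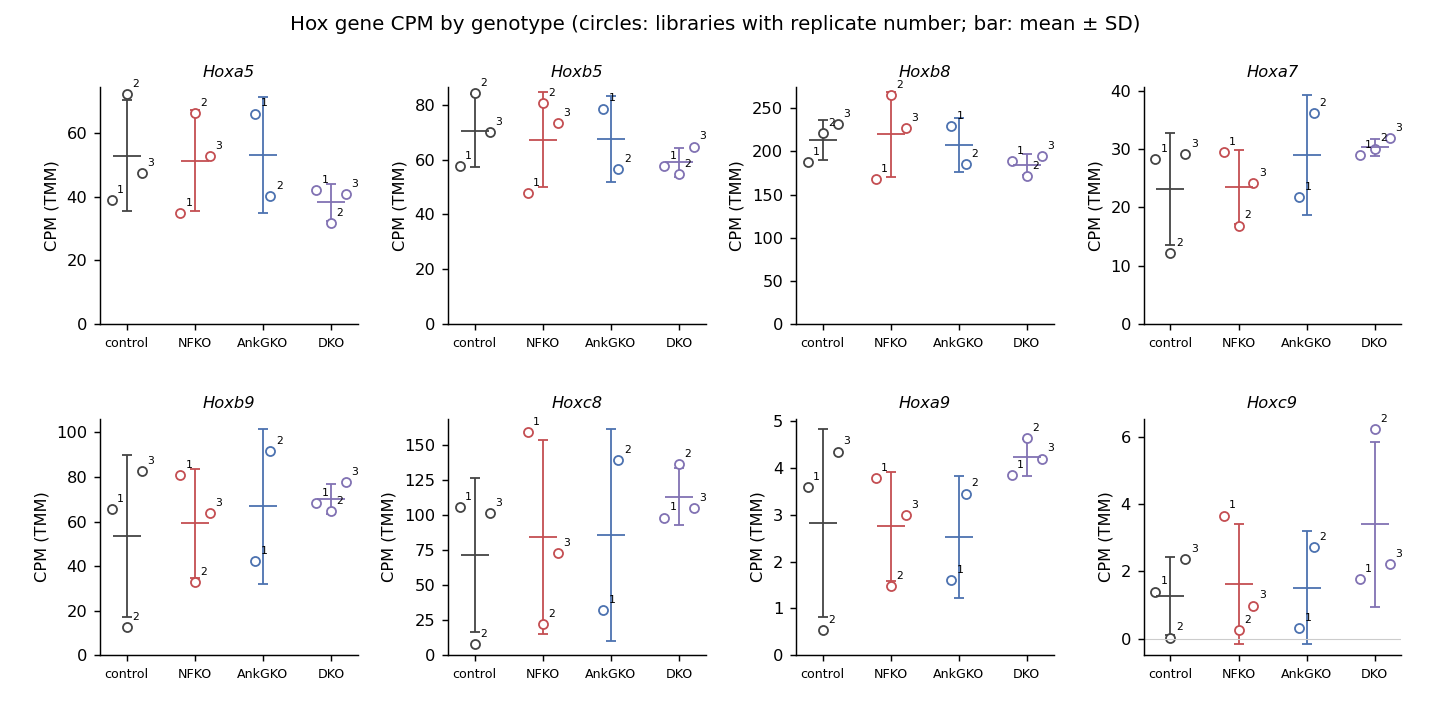
CPM of Hoxa5, Hoxb5, Hoxb8, Hoxa7, Hoxb9, Hoxc8, Hoxa9 and Hoxc9 by genotype (circles, libraries with their replicate number, bars, mean ± SD, n = 3, 3, 2 and 3). The control libraries overlap each knockout group in every panel, while DKO lies above NFKO and AnkGKO for Hoxa9, with control 2, NFKO 2 and AnkGKO 1 low for Hoxa7, Hoxb9, Hoxc8, Hoxa9 and Hoxc9 and high for Hoxa5 and Hoxb5.

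Genes that act with or on the Hox genes were read from lists, and none of their tested members was called by edgeR in any of the 5 pairwise comparisons. Of all genes 0.0228 to 0.615% were called in these comparisons, so lists of this size would hold few or no calls anyway. The 9 cofactors were all above 3 counts in each library, and their sum was 320 to 361 CPM with a median residual SD of 0.118 on the log2 scale. Meis2, a homeodomain partner, was at 42.2, 62.9 and 49.4 CPM in control with its highest value in control 2. The 10 genes of Polycomb complex PRC2, which sets the silencing mark on histone H3, summed to 429 to 481 CPM, and the 12 genes of PRC1 to 874 to 928 CPM. Trithorax group genes and the demethylases that oppose PRC2 summed to 520 to 572 CPM over 9 genes. Their median residual SDs were 0.0871, 0.108 and 0.0867, all under the 0.314 of the Hox genes.
Among 16 flanking genes that were found, 14 had at least 1 CPM, and their median residual SD was 0.0913, with Evx1 and Skap1 at 0.490 each as the widest of the 14. Cbx5 beside cluster C was at 198 to 238 CPM and Mtx2 beside cluster D at 37.5 to 46.8. Evx1, a homeobox gene at the end of cluster A, was at 2.34, 3.85 and 1.76 CPM in control, 1.63, 3.02 and 2.21 in NFKO, and 3.43 and 1.52 in AnkGKO, highest in control 2, NFKO 2 and AnkGKO 1. In this its order of libraries was that of the Hox genes of low number, and it lies beyond Hoxa13.
Among 15 genes of retinoic acid and caudal input, the caudal genes Cdx1, Cdx2 and Cdx4 and the retinoic acid degrading Cyp26c1 were at or under 3 counts in each library. Aldh1a2, which makes retinoic acid, was at 5.49, 22.2 and 10.9 CPM in control, 16.8, 45.1 and 20.9 in NFKO, 17.9 and 7.28 in AnkGKO, and 14.4, 7.01 and 4.50 in DKO. It was highest in control 2, NFKO 2 and AnkGKO 1, like the fibroblast sum. Crabp2, a retinoic acid carrier, ranged from 0.369 to 8.84 CPM, with the highest value in NFKO 2. Of 13 forebrain, midbrain and anterior hindbrain factors, 6 (Emx1, Emx2, Six3, Nkx2-1 and Otx1 among them) were at or under 3 counts in each library, and En2, a factor of the cerebellar region, was at 25.4 CPM in control 1, 21.5 in NFKO 1 and 3.71 to 6.65 in the other 9. Of the noncoding RNAs of the clusters 3 of 13 were found, and together they reached at most 1.56 CPM.

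Exons shared between genes limit how some values can be read. Hoxd3 and Hoxd4 share exonic bases with each other or with another gene model over 38.2% and 52.0% of their lengths, and 51.5% of the exonic bases of Hoxb3 and 30.8% of those of Hoxb6 face an antisense transcript, in the annotation used for lengths. The libraries were strand-specific, but whether strand was used in counting is not given in the sources used here, so reads of these genes and their partners may be mixed.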

How the data were processed

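Bulk polyA RNA-seq was available for 11 libraries in 4 genotypes, grouped by the genotype in their labels. The authors deposited raw read counts per gene for 22609 genes, and the submitters' processing notes name FastQC 0.12.1, Trimmomatic 0.39, STAR 2.7.11a, R 4.3.2, DESeq2 1.40.2 and the build GRCm39. The study's methods name STAR's own gene counting during mapping and an Ensembl annotation of that build, and the strand setting is not given in the sources used here. The labels give single-end reads and the study's methods paired-end reads. A deposited table of normalized values was not used, and 0 value columns of the count table were left unused. The summary lines of the count table were left out. They held 9.23 to 10.4% (no gene), 0.168 to 0.185% (ambiguous) and 32.5 to 34.3% (not unique) per library.

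Genes with at least 10 counts in all were kept (17557). Differential expression was tested with edgeR 4.0.16 (R 4.3.3, limma 3.58.1; TMM, robust quasi-likelihood test, all libraries in 1 fit by genotype) with Benjamini-Hochberg adjustment over all genes, and called at an adjusted p under 0.05 and a log2 fold change of at least 0.6 in size. DESeq2 1.42.0 with a local fit was the alternative. Both were tested on simulated data. CPM are counts per unit of TMM-scaled library total, and levels between genes are CPM per kb of union exon on GRCm39, and figures were drawn with matplotlib 3.10.9.

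Deviations from the group means correlated between control and NFKO libraries of the same number (r = 0.378, 0.317 and 0.180), so their numbers were taken as paired. Those of control and AnkGKO (-0.231 and -0.286) and of control and DKO (-0.094, 0.195 and -0.004) were not taken as paired. Between NFKO and DKO libraries of the same number r was 0.053, 0.355 and 0.184, so positive values were not limited to control and NFKO.

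The Hox genes and the gene lists were chosen with earlier results of these data known. Values in every library are given for the highest gene per length of each cluster, the 3 smallest p in each comparison with control, and the first and last detected paralog of each cluster, with Hoxb1 by its range. Hoxa7, Hoxa9, Hoxb5, Hoxb9, Hoxc6, Hoxc9 and the list genes given by library were chosen after their values were seen. Values of some genes, 1 of them a Hox gene that the rule names, are not reported here and are left out of the figures by gene, while counts and sums include them.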

Additional observations from a re-analysis of the deposited data

How the results depend on the processing

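No Hox gene was called under any of 117 alternatives of the 6 tests, which covered other filters, scalings, fold thresholds, DESeq2 and each library left out. The other fold thresholds were applied to the main fit. There the smallest adjusted p of a Hox gene in a pairwise comparison was 0.2875 (edgeR), so those alternatives could not add a call. With the replicate block 0 Hox genes were called in each test, and the log2 fold change of Hoxc8 was 0.97 in place of 0.66 in DKO and 0.85 in place of 0.26 in AnkGKO, where that of Hoxc10 was 0.89 in place of 1.22. Control libraries were not taken as paired by number with those of AnkGKO or DKO. The block changed no other call. Of 216 alternatives for single genes 209 kept their direction and 7 reversed. In NFKO, Hoxc8 went to -0.29 without control 2, to -0.59 without NFKO 1 and to -0.20 without control 1 and NFKO 1, and Hoxa3 went to 0.019 without NFKO 1. Leaving out NFKO 2 gave 0.70 for Hoxc8, the highest of these values. In AnkGKO, Hoxc8 went to -0.28 without control 2 and to -1.15 without AnkGKO 2, and Hoxc10 went to -2.44 without AnkGKO 2. Without AnkGKO 1 they were 0.96 and 2.17, the highest values. In DKO, Hoxc8 kept its direction, with 0.13 without control 2 and 1.06 without control 1. Leaving out each library in turn moved the mean paralog number over 6.35 to 6.67 in control, 6.42 to 6.69 in NFKO, 6.30 to 6.80 in AnkGKO and 6.68 to 6.74 in DKO. The summed Hox level moved over 767.0 to 836.4, 812.1 to 842.3, 806.0 to 843.5 and 765.4 to 793.5 CPM. The counts of genes by direction without single libraries, given with each comparison, were chosen after seeing the data. Depth limits Hoxb1, Hoxd13 and Hoxc10, which had few counts.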
